A study of Mus musculus with 16 samples.

Results

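Base excision repair and PARP genes were followed across 16 mouse osteosarcomas, bone tumors, that differed in *Arid1a* genotype. The 9 genes *Parp1*, *Parp2*, *Xrcc1*, *Lig3*, *Polb*, *Mutyh*, *Ogg1*, *Ung* and *Apex1* were taken by their symbols from the table of raw counts, which holds 25054 genes. All 9 had enough counts to be tested, among 15413 genes tested in all. They were taken for their place in the pathway and not by a threshold on their values, but with earlier results of these data known.

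RNA had been extracted from 8 tumors, called KO here, of mice that carried OsxCreERT2+/- with the floxed alleles p53fl/fl and Rb1fl/fl and, in addition, Arid1afl/fl. The other 8 tumors, called WT, came from mice with the same Cre and the same floxed *Trp53* and *Rb1* alleles but no floxed *Arid1a*, so WT refers to *Arid1a* alone. Cre was driven by the *Osterix* (*Sp7*) promoter, which is active in cells of the osteoblast lineage, and was induced with tamoxifen (400 μg per gram of mouse) at 1 month of age, so the macrophages, vessels and other host cells within a tumor keep the floxed alleles. The mice were older than 6 months and of both sexes, and the sex of single tumors is not in the labels. The 8 KO tumors carry 8 animal names (Massa, Medusa, Montana, Ohio, Prince, Grilka, Zelda and Oregon) with no body site. The 8 WT tumors came from only 4 mice, with 4 tumors from N42 (R pelvis, R femur, L limb, L shoulder), 2 from N43 (spine, pelvis), 1 from N215 (R hind limb) and 1 from N25 (lung). Whether the N25 tumor arose in the lung region or spread there is not in its label. N25 had the lowest osteoblast sum in WT. Without it the adjusted p in edgeR, with each tumor as a sample, was 0.0250 for *Parp1* and 0.0484 for *Mutyh*. Without N42 these were 0.410 and 0.587, and without N43 they were 0.0826 and 0.155. Tumors of the same mouse are not independent, and values per mouse are given beside those per tumor.

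Base excision repair removes single damaged or misplaced bases. A DNA glycosylase cuts the base from its sugar, an endonuclease opens the strand at the empty site, a polymerase fills the gap and a ligase held on a scaffold protein seals it. Poly(ADP-ribose) polymerases bind the opened strand, and the ADP-ribose chains they build from NAD+ bring the scaffold and ligase to the break.

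Library totals ran from 1109487 counts (Massa) and 1812818 (Grilka) to 15059640 in KO and from 7806160 to 16962329 in WT. A count of 3 corresponds to 6.69 CPM (counts scaled by library size) in Massa and to 4.03 in Grilka, against at most 0.839 CPM in any other tumor, so low genes were read less well in those KO tumors. *Arid1a* itself, counted over the whole gene, stood at 187 ± 57.5 CPM in KO and 167 ± 31.8 in WT (SD, n = 8 each, adjusted p = 0.715 in edgeR's quasi-likelihood test), and such a count cannot separate the floxed exons from the others. Of the osteoblast genes, *Runx2* had counts in all 16 tumors and *Sp7* in all but 1 KO tumor. The summed level of 14 osteoblast genes ran from 855 to 64000 CPM in KO and from 3541 to 94510 in WT. Its median was 8680 CPM in KO and 62730 in WT. Of the 14 genes, 11 had a log2 fold change below 0 and none passed in edgeR. At an unadjusted p under 0.05 stood 5 of them, all lower in KO, against 23.0% of all genes in either direction. Genes of other tissues were high in some tumors, with muscle genes at 114000 CPM in Montana and 167400 in Oregon, salivary gland genes at 116300 in Prince, and lung genes at 12240 in Massa and 29170 in N25, whose site is labeled lung. A summed list of 15 macrophage genes was lower in KO, at 394 to 2273 CPM against 859 to 3523 in WT. With each tumor as a sample, 11 of its 15 genes passed in edgeR, against 2.15% of all genes called lower in KO. With counts summed per mouse, 0.0625% of 16007 genes passed at all. In these bulk samples fewer cells of a type and less RNA per cell cannot be told apart.

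The start regions of the genes are printed for *Parp1*, the gene with the smallest p of the group, for *Parp2*, which faces the most abundant of the neighboring genes, and for *Apex1*, which faces another gene and holds a repeated motif. The sequences are RefSeq's, on GRCm38.p6, and all are plus strand and read toward the gene. In the *Parp1* stretch (chr1:180568641-180568920) capitals mark the 4 copies of GGGCGG or its reverse complement CCGCCC, the letters known as a GC box. In the *Parp2* stretch (chr14:50807733-50807870) capitals mark 35 bases annotated as *Rpph1*, the RNA subunit of RNase P, on the opposite strand, and 30 bases annotated as *Parp2*, with 73 bases between them. In the *Apex1* stretch (chr14:50924894-50924978), which begins just past the start of *Osgep*, capitals mark 3 copies of the E box CACGTG.
Parp1: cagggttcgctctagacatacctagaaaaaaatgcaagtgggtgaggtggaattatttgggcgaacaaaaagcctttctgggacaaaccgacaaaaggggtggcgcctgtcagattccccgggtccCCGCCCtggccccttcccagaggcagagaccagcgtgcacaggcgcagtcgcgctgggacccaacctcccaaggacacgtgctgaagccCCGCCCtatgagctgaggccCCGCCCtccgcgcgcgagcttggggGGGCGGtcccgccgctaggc
Parp2: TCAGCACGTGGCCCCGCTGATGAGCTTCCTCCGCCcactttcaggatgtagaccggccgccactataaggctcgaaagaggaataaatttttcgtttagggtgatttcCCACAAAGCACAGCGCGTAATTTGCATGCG
Apex1: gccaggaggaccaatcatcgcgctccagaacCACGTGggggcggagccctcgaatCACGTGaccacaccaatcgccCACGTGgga

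The motifs were counted in windows of 300 bases. Such windows around the start (250 before and 50 after) were available for 8 members, and *Polb* had none. The window of *Xrcc1* lies 410 bases from the GENCODE start and so describes another start of that gene. GGGCGG was in 7 of the 8 windows on either strand, all but that of *Xrcc1*, against 35.6% of 32817 mouse windows. CACGTG was in 4 of the 8 (*Parp1*, *Parp2*, *Lig3* and *Apex1*), against 7.15% of all windows, and CCAAT in 4 (*Mutyh*, *Ogg1*, *Xrcc1* and *Apex1*), against 37.4%. TTTGGCGC and TTTCCCGC, written forms of the E2F site, and TATAAA were in none of the 8, against 0.515%, 1.07% and 13.6% of all windows. None of these motifs contains another, and a match describes the letters only. Of the 9 genes, 6 had the start of a gene on the opposite strand within 1000 bases upstream (66 to 225 bases away), against 14.2% of 15393 tested genes with a position.

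The first question was whether the genes differed between KO and WT tumors. *Parp1* and *Mutyh* were higher in KO in edgeR's quasi-likelihood test, and the other 7 did not pass an adjusted p of 0.05. The background for these 2 of 9 genes is 4.01% of all genes tested, with 1.86% higher in KO and 2.15% lower. At an unadjusted p under 0.05, *Xrcc1* joined them, which makes 3 of 9, all higher in KO, against 23.0% of all genes in either direction and 13.3% higher in KO. The log2 fold change was above 0 for 7 of 9 genes, against 55.9% of all genes, and its median was 0.52 over the 9 and 0.097 over all genes. For no member were all KO tumors on one side of all WT tumors, a separation that 0.415% of all tested genes showed.

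**Figure D1:**
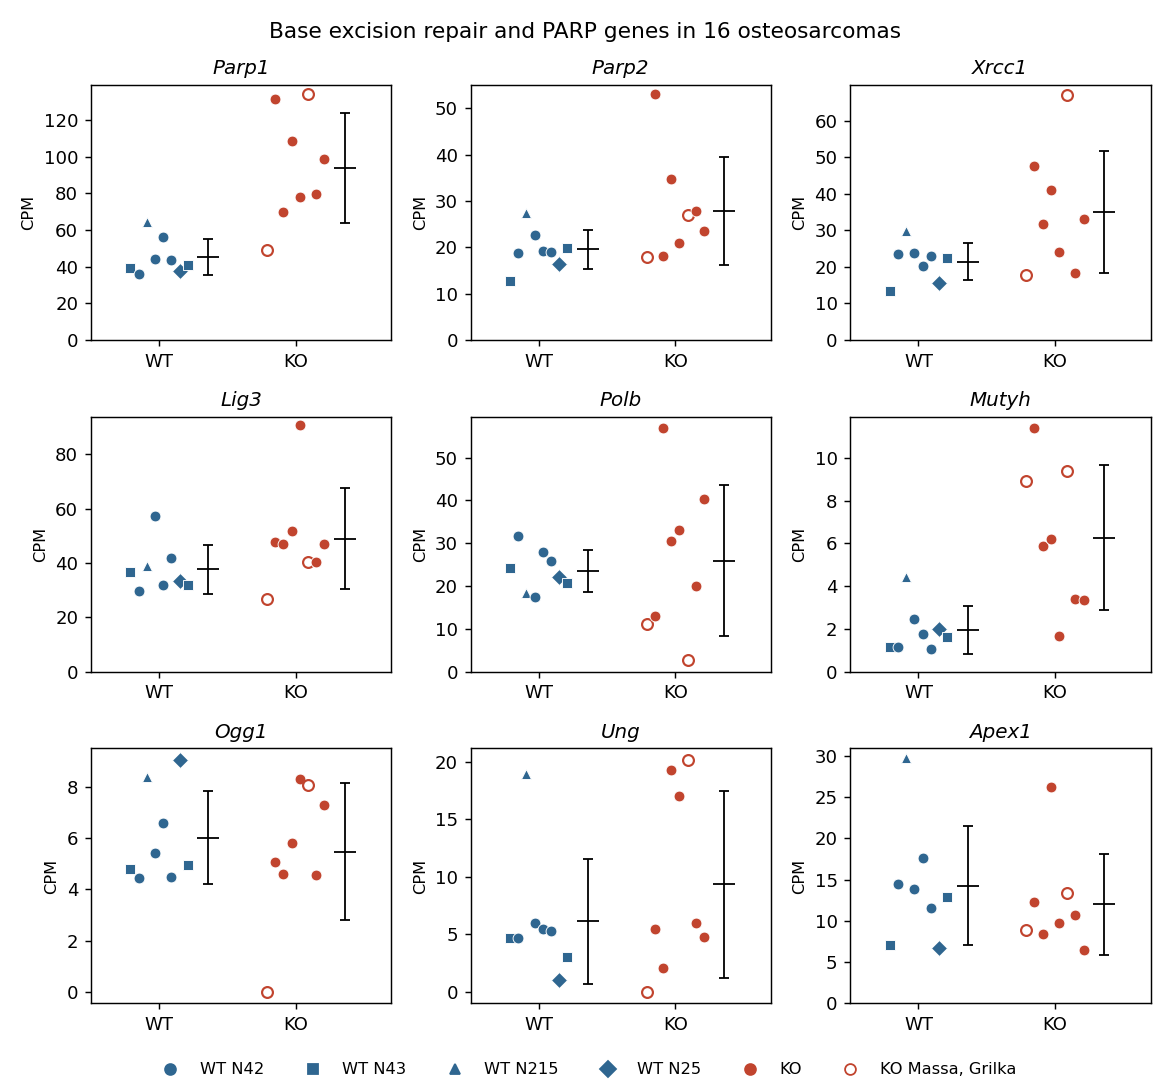
Level of each gene in CPM (vertical axis, linear) in single WT tumors (blue, one symbol shape per mouse) and KO tumors (red, with the shallow libraries Massa and Grilka as open circles), with the group mean and SD in black. *Parp1* in KO lies at 49.1 to 134.3 CPM and in WT at 35.9 to 64.4, while *Ogg1*, *Apex1* and *Polb* overlap over most of their range.

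*Parp1* (chr1:180568924-180601254, plus strand) encodes the main poly(ADP-ribose) polymerase of the nucleus, which binds strand breaks. Its level was 49.1 CPM in Massa, 69.9 in Montana, 77.8 in Prince, 80.0 in Zelda, 99.0 in Oregon, 108.5 in Ohio, 131.4 in Medusa and 134.3 in Grilka. In WT it was 35.9, 44.0, 56.0 and 43.5 CPM in the R pelvis, R femur, L limb and L shoulder tumors of N42, 39.3 and 40.8 in the spine and pelvis tumors of N43, 64.4 in N215 and 37.4 in N25. On this TMM-scaled level, all KO tumors but Massa were above the highest WT tumor, and Massa was above 6 of the 8 WT tumors. The low TMM factors of Massa, Grilka, Oregon and Montana raise their CPM, and the order differed without these factors. As a share of the library total, *Parp1* in these tumors and in Prince was below that in the L limb tumor of N42. Massa was then the lowest of all tumors, and only Zelda, Medusa and Ohio were above every WT tumor. Grilka had 100 *Parp1* counts of 1812818, and the L limb tumor had 1108 of 14742508. On the TMM-scaled level, 1.1% of all genes had 7 or more KO tumors above the highest WT tumor. Massa's value rests on 22 counts, with an exact 95% Poisson interval of 30.7 to 74.3 CPM that covers counting error only.

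Over 8 tumors a group, *Parp1* averaged 93.7 ± 30.0 CPM in KO and 45.1 ± 9.94 in WT (SD), for a log2 fold change of 1.06 ± 0.23 (SE), or 2.079-fold, with an adjusted p of 0.0160 in edgeR's quasi-likelihood test with Benjamini-Hochberg adjustment. With the counts of a mouse's tumors summed, the level was 93.7 ± 30.0 CPM in 8 KO mice and 46.7 ± 12.2 in 4 WT mice. The mean log2 levels differed by 0.97 with a two-sided exact permutation p of 0.00606, unadjusted and the smallest among the 9 genes. The smallest p that 495 arrangements allow is 0.00202. The call over all genes was lost when mice rather than tumors were the unit. Summing counts per mouse gave a log2 fold change of 1.05 and an adjusted p of 0.419 in edgeR, where 0.0625% of 16007 genes passed at all, and limma-voom, taking the mouse as random, gave 1.03 and 0.254. With 1 tumor per mouse (R pelvis for N42, spine for N43) they were 1.12 and 0.332. Over all genes 12.5% passed in DESeq2, 0.11% in limma-voom and 0.094% with 1 tumor per mouse. Without N42 the adjusted p was 0.410, and without N43 it was 0.0826.

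*Parp2* (chr14:50807841-50821301, plus strand) encodes the second polymerase that responds to breaks. Its lowest, median and highest levels were 17.8, 25.2 and 53.01 CPM in KO and 12.8, 19.1 and 27.5 in WT. Only Medusa (53.01), Ohio (34.6) and Zelda (27.8) were above the highest WT tumor, and the groups overlapped over most of the WT range. The mean was 27.8 ± 11.6 CPM in KO and 19.5 ± 4.29 in WT, a log2 fold change of 0.52 ± 0.25 that did not pass (adjusted p = 0.225 in edgeR) and was 0.31 without Medusa. *Rpph1*, whose start is 74 bases from that of *Parp2*, took 1.56% to 9.67% of the counts of KO tumors and stood at 12620 to 235300 CPM there, against 6092 to 77530 CPM in WT (log2 fold change 1.86 ± 0.93, adjusted p = 0.243). The exons of the genes do not overlap.

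*Xrcc1* (chr7:24546289-24573440, plus strand) encodes the scaffold that holds the ligase and polymerase at the break. Its level was 17.8, 32.3 and 67.1 CPM (lowest, median, highest) in KO and 13.4, 22.7 and 29.8 in WT. Grilka (67.1), Medusa (47.7), Ohio (40.9), Oregon (33.0) and Montana (31.6) were above the highest WT tumor, while Massa, Zelda and Prince lay inside the WT range. The mean was 35.1 ± 16.6 CPM in KO and 21.5 ± 5.12 in WT, a log2 fold change of 0.71 ± 0.28 with an adjusted p of 0.146 in edgeR. Over mice, two-sided exact permutation tests gave p = 0.119 for *Xrcc1*, 0.156 for *Parp2* and 0.174 to 0.834 for *Lig3*, *Polb*, *Ogg1*, *Ung* and *Apex1*, all unadjusted.

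*Lig3* (chr11:82781108-82804274, plus strand) encodes the ligase bound by the scaffold, which also serves mitochondria. It was at 26.8, 47.1 and 90.7 CPM in KO and at 29.7, 34.95 and 57.4 in WT. Prince alone was above the highest WT tumor, the R femur tumor of N42. The log2 fold change was 0.39 ± 0.23 and did not pass (adjusted p = 0.326 in edgeR), and without Prince it was 0.20. With counts summed per mouse, 7 of 8 KO mice, all but Massa, were above the highest WT mouse, N42 at 39.5 CPM. Zelda (40.2 CPM) and Grilka (40.3) were above it by little, and the two-sided exact permutation p was 0.174, unadjusted. The share of all genes with such a separation over mice was not counted. *Lig3* shares 1826 exon bases with *Rffl* on the opposite strand, and since the sources used here do not state whether libraries kept strand, reads there cannot be assigned to either gene with certainty. *Rffl* had a log2 fold change of -0.27 (adjusted p = 0.653).

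*Polb* (chr8:22628126-22653435, minus strand) encodes the polymerase that fills the single-base gap. Its KO values ran from 2.69 CPM in Grilka, a value of 2 counts with a 95% Poisson interval of 0.325 to 9.70 CPM, through a median of 25.2 to 56.9 in Montana. The WT values stayed between 17.4 and 31.6 CPM, with a median of 23.2. KO tumors lay on both sides of the WT range, with Grilka, Massa and Medusa below it and Montana, Oregon and Prince above. The means of 25.9 ± 17.7 and 23.5 ± 4.84 CPM differed by less than the spread between tumors (log2 fold change 0.17 ± 0.39, adjusted p = 0.841 in edgeR). With counts summed per mouse, the mean log2 levels differed by -0.15, the opposite sign, while edgeR on those sums gave 0.29. Montana and Oregon are the tumors with the highest muscle RNA, and without them the log2 fold change was -0.32, with an adjusted p of 0.699.

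*Mutyh* (chr4:116807723-116819440, plus strand) encodes the glycosylase that removes adenine placed opposite oxidized guanine. It was at 1.66 CPM in Prince, 3.36 in Oregon, 3.39 in Zelda, 5.87 in Montana, 6.20 in Ohio, 8.92 in Massa, 9.40 in Grilka and 11.4 in Medusa. In WT it was between 1.06 and 2.44 CPM in 7 tumors and 4.42 in N215. Montana, Ohio, Massa, Grilka and Medusa were above N215, Oregon and Zelda were below N215 but above the other WT tumors, and Prince was inside the WT range.

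The mean *Mutyh* level was 6.28 ± 3.41 CPM in KO and 1.95 ± 1.11 in WT, a log2 fold change of 1.63 ± 0.43, or 3.104-fold, with an adjusted p of 0.0431 in edgeR. These are low counts, 4 to 65 per KO tumor and 18 to 43 per WT tumor, and the 95% Poisson interval of Massa's 4 counts runs from 2.43 to 22.8 CPM. Without Massa and Grilka the log2 fold change was 1.42 and the adjusted p 0.0697, and leaving out any one of Medusa, Montana, Ohio, Grilka, Oregon, N42 or N43 also took the adjusted p above 0.05, to between 0.0549 and 0.587. Over mice the exact permutation p was 0.0384, unadjusted over 9 genes, and summing counts per mouse gave a log2 fold change of 1.42 with an adjusted p of 0.604. *Toe1*, which starts 83 bases away on the opposite strand, was at 13.1 ± 4.36 CPM in KO and 11.6 ± 2.10 in WT (log2 fold change 0.17, adjusted p = 0.723), and the difference between both genes' changes was not tested.

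*Ogg1* (chr6:113326972-113335068, plus strand) encodes the glycosylase that removes oxidized guanine itself. It was at 0, 5.44 and 8.30 CPM in KO and at 4.42, 5.18 and 9.04 in WT, so apart from Massa the ranges covered each other. Massa had 0 counts, with a 95% Poisson interval that reaches 8.23 CPM in that library. The log2 fold change was -0.090 ± 0.37 (adjusted p = 0.915 in edgeR). *Ogg1* shares 232 exon bases with *Camk1* on the opposite strand, whose log2 fold change was 0.60 (adjusted p = 0.181).

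*Ung* (chr5:114130386-114139323, plus strand) encodes the glycosylase that removes uracil from DNA. Its values had the widest spread of the group on the log2 scale, with an SD of 2.28 in KO and 1.104 in WT. In KO, Grilka (20.1 CPM), Ohio (19.3) and Prince (17.02) stood apart from the 5 others, which had 0 to 5.97 CPM. In WT, N215 had 18.9 CPM and the other tumors 1.03 to 6.02. The log2 fold change of 0.63 ± 0.61 did not pass (adjusted p = 0.574 in edgeR), and leaving out 1 mouse moved it from 0.37 (without Ohio) to 1.18 (without N215).

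*Apex1* (chr14:50924968-50927139, plus strand) encodes the endonuclease that opens the strand at the empty site. It was at 6.43, 10.3 and 26.2 CPM in KO and at 6.71, 13.4 and 29.7 in WT, with N215 highest in WT and Ohio in KO. No KO tumor was above N215 and the groups overlapped nearly throughout (log2 fold change -0.23 ± 0.35, adjusted p = 0.739 in edgeR). *Apex1* shares 877 exon bases with *Pip4p1* on the opposite strand (log2 fold change -0.50, adjusted p = 0.241). Its neighbor *Osgep*, which starts 75 bases away, had a log2 fold change of 0.096 (adjusted p = 0.875).

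**Figure D2:**
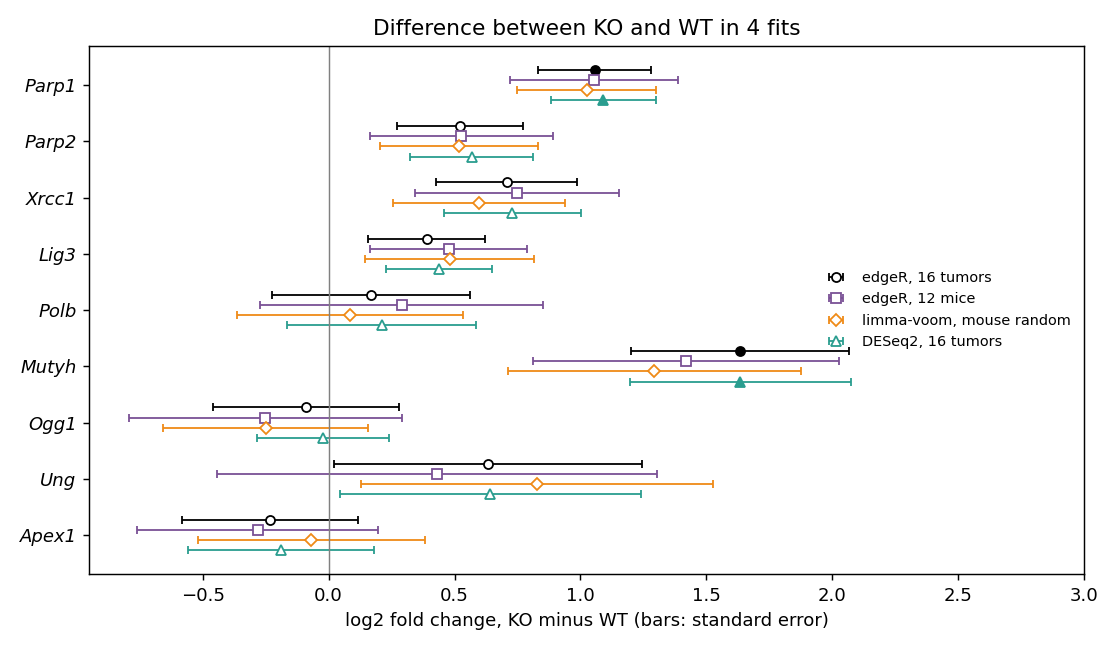
Log2 fold change of KO minus WT (horizontal axis) with its standard error in edgeR on 16 tumors, edgeR on counts summed over 12 mice, limma-voom taking the mouse as random, and DESeq2 on 16 tumors, where filled symbols have an adjusted p under 0.05. *Parp1* lies at 1.03 to 1.09 and *Mutyh* at 1.29 to 1.63 in all 4, and both are filled only in the fits that take each tumor as a sample.

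N215 was the highest WT tumor for 6 of the 9 genes (*Parp1*, *Parp2*, *Xrcc1*, *Mutyh*, *Ung* and *Apex1*), as it was for 22.4% of all genes tested. Massa was the lowest KO tumor for 6 (*Parp1*, *Parp2*, *Xrcc1*, *Lig3*, *Ogg1* and *Ung*), as for 37.9% of all genes. The highest KO tumor and the lowest WT tumor varied from gene to gene, each over 5 tumors, with Grilka highest in KO for 3 genes and the R pelvis tumor of N42 lowest in WT for 3. The summed level of the 9 genes ran from 140.5 CPM in Massa to 327 in Medusa in KO and from 143.7 in N25 to 240.5 in N215 in WT. The SD of log2 CPM was larger in KO than in WT for 8 of 9 genes, all but *Apex1*, and this held for 90.4% of all genes tested. For *Parp1* the SDs were 0.49 and 0.29, against medians of 1.11 and 0.51 over all genes.

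Levels can be set against each other only per length, and each was divided by the kilobases of merged exons. In WT mice *Apex1* was highest at 10.7 ± 7.14 CPM per kilobase (SD, n = 4), followed by *Parp1* at 8.82 ± 2.31, and *Apex1* was above *Parp1* in only 2 of 4 mice. *Polb* (5.65 ± 0.79), *Parp2* (5.53 ± 1.43) and *Lig3* (5.01 ± 0.44) came next and did not differ beyond their spread. *Xrcc1* (3.69 ± 1.07) and *Ogg1* (3.15 ± 0.98) followed, and *Ung* (1.33 ± 1.46) and *Mutyh* (0.90 ± 0.54) were lowest. In KO mice *Parp1* was first at 17.7 ± 5.67 CPM per kilobase (n = 8) and above *Apex1*, at 8.46 ± 4.32, in all 8. *Parp2* (7.67 ± 3.20), *Lig3* (6.73 ± 2.54), *Polb* (6.59 ± 4.49) and *Xrcc1* (6.02 ± 2.85) formed a middle group in which each was above the next in only 5 or 6 of 8 mice. *Ogg1* (2.49 ± 1.22), *Mutyh* (2.40 ± 1.305) and *Ung* (1.71 ± 1.49) were lowest and within each other's spread. Reads over exon bases shared with opposite-strand genes may enter the values of *Apex1*, *Lig3* and *Ogg1*.

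A ratio of paired members inside a library needs no scaling between libraries, and 5 such ratios were compared over 12 mice with two-sided exact permutation tests. The log2 ratio of *Parp1* to *Parp2* counts was 1.40 in Massa, 1.31 in Medusa, 1.94 in Montana, 1.65 in Ohio, 1.89 in Prince, 2.29 in Grilka, 1.52 in Zelda and 2.07 in Oregon. It was 1.17 in N42, 1.28 in N43, 1.23 in N215 and 1.19 in N25. Every KO mouse was above every WT mouse, though Medusa (1.31) was above N43 (1.28) by little. The share of all gene pairs with such a separation over mice was not counted. The means of 1.76 ± 0.34 (n = 8) and 1.22 ± 0.0475 (n = 4) differed by 0.54 with an exact p of 0.0141, which adjustment over the 5 ratios raised to 0.0707. Single WT tumors were more scattered, from 0.93 to 1.62, and 5 of 8 KO tumors were above all of them. Taken as 16 separate tumors the difference was 0.55 with an adjusted exact p of 0.0109, but tumors of the same mouse are not independent.

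The log2 count ratio of *Ogg1* to *Mutyh*, glycosylases that both deal with oxidized guanine, was -0.15 ± 1.603 in KO mice and 1.64 ± 0.52 in WT mice. It was lowest in Massa (-3.17), where it rests on 0 counts of *Ogg1* and 4 of *Mutyh*, followed by Medusa (-1.15), Montana (-0.35), Grilka (-0.21) and Ohio (-0.091). Per kilobase of exon, *Mutyh* was above *Ogg1* in Massa, Medusa and Montana, and in no WT mouse. Prince, at 2.29, was above all 4 WT mice, which ran from 0.92 to 2.16. The difference of -1.79 had an exact p of 0.0545 and 0.136 after adjustment over the 5 ratios, and without Massa and Grilka it was -1.28 with an adjusted exact p of 0.226. *Xrcc1* to *Lig3* differed by 0.26, *Ung* to *Apex1* by 0.71 and *Polb* to *Lig3* by -0.51, each with an adjusted exact p of 0.529.

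**Figure D3:**
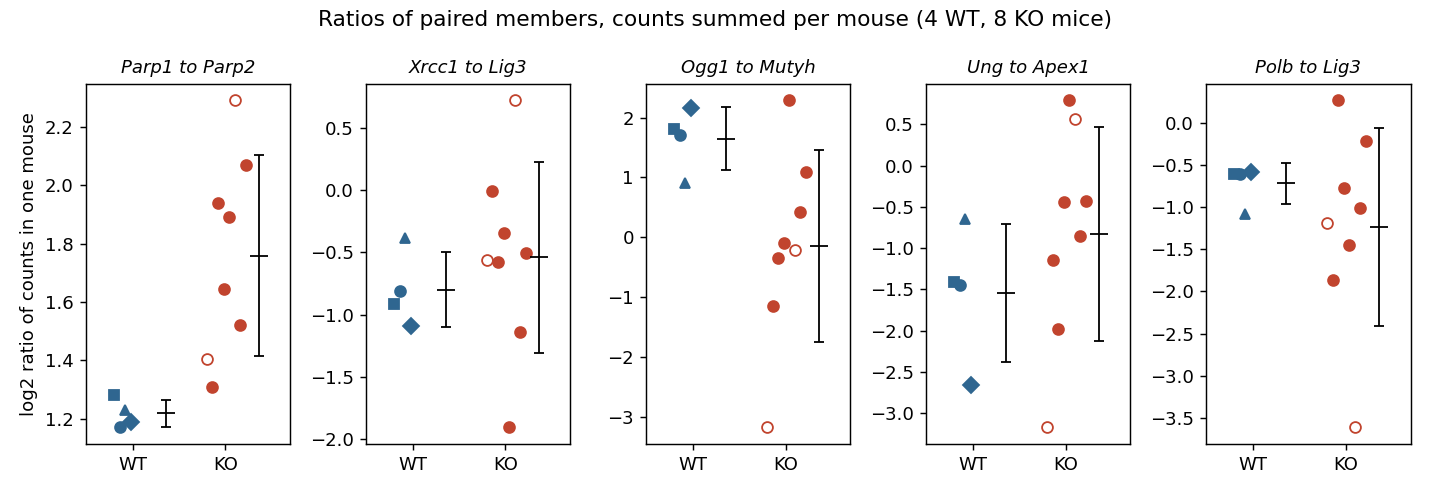
Log2 ratio of the counts of paired genes (vertical axis, one scale per panel) in 4 WT mice (blue, one shape per mouse) and 8 KO mice (red, Massa and Grilka open), with mean and SD in black. In the first panel the KO mice lie at 1.31 to 2.29 and the WT mice at 1.17 to 1.28, and in the other panels the groups overlap.

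Other genes of the pathway were read from lists grouped by role. Of 8 other DNA glycosylases, 4 were higher and 4 lower in KO, none passed, and the median log2 fold change was -0.061. Their largest values were those of *Neil3* (1.15 ± 0.79, adjusted p = 0.398 in edgeR) and *Nthl1* (0.79 ± 0.35, adjusted p = 0.193), glycosylases for oxidized bases. *Nthl1* alone had an unadjusted p under 0.05. Of 19 genes of end processing, gap filling and ligation, 17 had a log2 fold change above 0, against 55.9% of all genes, with a median of 0.38. None passed, and only 2 of the 19 had an unadjusted p under 0.05 in edgeR, against 23.0% of all genes. Their summed level was 665 to 1054 CPM in Grilka, Ohio, Zelda and Medusa, the KO tumors high in proliferation genes. It was 399 to 485 in the other 4 KO tumors and 424 to 849 in WT. Part of this list, such as *Lig1*, also serves DNA replication. Of all single genes, 8.10% separated these KO tumors in the same direction. *Poll*, a gap-filling polymerase, stood at 7.99 ± 4.22 CPM in KO and 4.15 ± 1.05 in WT (0.97 ± 0.35, adjusted p = 0.110), and *Lig1*, the replicative ligase, at 39.2 ± 34.2 and 21.6 ± 6.95 (0.86 ± 0.50, adjusted p = 0.313).

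The other 13 PARP family genes did not share the direction of *Parp1*, with 5 higher and 8 lower, a median of -0.013 and none past the threshold in edgeR. The 2 with an unadjusted p under 0.05, *Tiparp* and *Parp12*, were both lower in KO, where 23.0% of all genes reached that p in either direction. *Tiparp*, a mono-ADP-ribosyltransferase induced by the aryl hydrocarbon receptor, was at 11.2 to 51.6 CPM in KO and at 46.9 to 78.6 in WT. The KO median of 31.96 CPM was below the lowest WT tumor, and the log2 fold change of -0.91 ± 0.26 had an adjusted p of 0.0543. *Parp3*, which also responds to breaks, had a log2 fold change of 0.72 ± 0.38 (adjusted p = 0.269).

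Of 10 genes of ADP-ribose removal and NAD+ supply, 9 had a log2 fold change above 0, against 55.9% of all genes, and the median was 0.86. The list's summed level stood apart in Montana (455.8 CPM) and Oregon (418.3), the tumors with the highest muscle RNA, while the other KO tumors had 167 to 293 CPM and WT tumors 161 to 225. The part of muscle RNA in this list was not tested. *Chd1l*, a chromatin remodeler recruited by poly(ADP-ribose), was the only one of the 10 called, against 4.01% of all genes. *Chd1l* was at 8.92 CPM in Massa and at 22.3 to 45.7 in the other KO tumors, against 11.4 to 17.2 in WT. On this TMM-scaled level 7 of 8 KO tumors were above all WT tumors, where 1.1% of all genes had 7 or more. Without the TMM factors, Grilka and Oregon were below the L limb tumor of N42. The means of 31.3 ± 12.3 and 14.9 ± 2.077 CPM gave a log2 fold change of 1.08 ± 0.27 with an adjusted p of 0.0326 in edgeR. This call was lost in 11 of 21 alternatives. Among them were counts summed per mouse (adjusted p = 0.520), no filter (0.0533), the fit without Montana and Oregon (0.0909) and leaving out any one of Medusa, Montana, Grilka, Oregon, N43 or N42 (0.0505 to 0.492). *Macrod1* and *Macrod2*, hydrolases of ADP-ribose, had log2 fold changes of 2.56 ± 0.81 (adjusted p = 0.0762) and 1.68 ± 0.68 (adjusted p = 0.153), with 4 and 3 of 8 KO tumors above all WT tumors. *Macrod1* was at 116.8 CPM in Montana and 104.6 in Oregon, and at 1.15 to 21.7 in the other KO tumors. At an unadjusted p under 0.05 stood 6 of the 10 genes, all higher in KO, against 23.0% of all genes in either direction and 13.3% higher in KO.

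**Figure D4:**
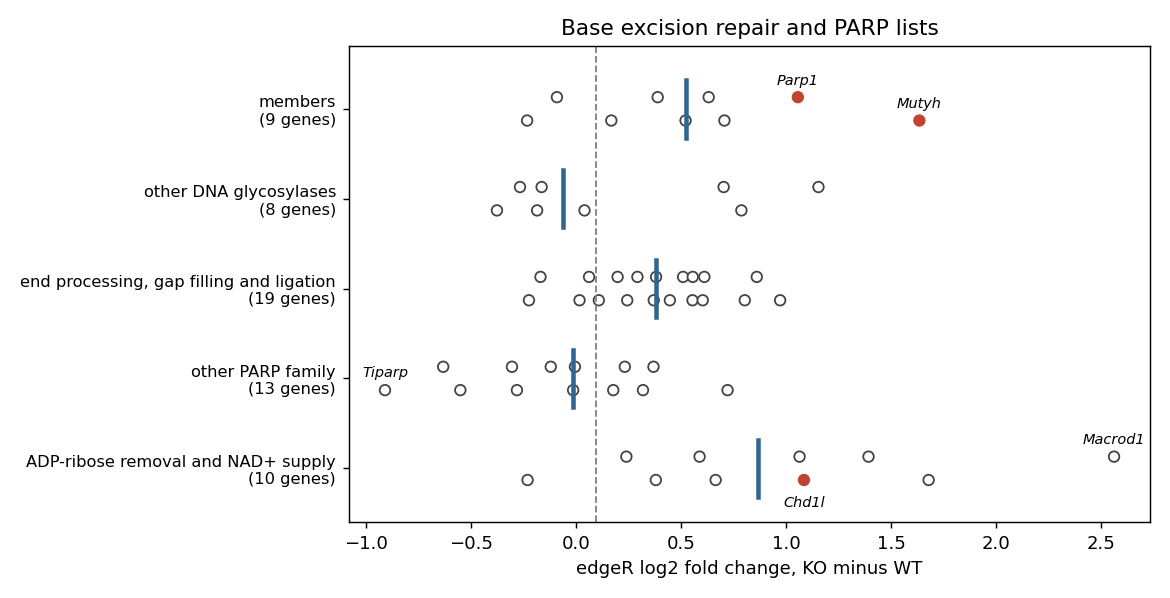
EdgeR log2 fold change of KO minus WT (horizontal axis) of each gene in 5 lists, with the list's median as a blue bar, the median of all genes (0.097) as a dashed line and genes with an adjusted p under 0.05 in red. The median is 0.52 for the 9 members, 0.38 for end processing and 0.86 for ADP-ribose removal, and it is near 0 for the other glycosylases and the other PARP genes.

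Repair genes are often read beside proliferation, and the KO tumors fell into separate clusters in a summed list of 20 proliferation genes. Montana, Prince, Oregon and Massa had 65.3 to 124.9 CPM, below every WT tumor, and Grilka, Ohio, Zelda and Medusa had 1321 to 2699. WT tumors ran from 315 to 1545 CPM. A correlation over the 8 KO tumors was therefore not run, and values are given for the tumors themselves. *Parp2* was at 17.8 to 23.5 CPM in the 4 low tumors and at 26.9 to 53.01 in the 4 high ones, and *Apex1* at 6.43 to 9.80 and 10.8 to 26.2, so neither overlapped, a separation in this direction that 8.10% of all genes tested showed. Massa and Grilka carry few of these counts, with 8 and 20 for *Parp2* and 4 and 10 for *Apex1*. Their 95% Poisson intervals overlap across the clusters, at 7.70 to 35.2 and 16.4 to 41.5 CPM for *Parp2* and at 2.43 to 22.8 and 6.44 to 24.7 for *Apex1*. *Parp1* did overlap, at 49.1 to 99.0 and 80.0 to 134.3 CPM.

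On the TMM-scaled level, *Parp1* was above most WT tumors at either end of that range. Montana, Prince and Oregon, with fewer proliferation counts than any WT tumor, had 69.9 to 99.0 CPM of *Parp1*, above the highest WT tumor at 64.4, while Massa, the other such tumor, had 49.1, below N215 and the L limb tumor of N42. Ohio, with 1554 CPM of proliferation genes, had 108.5 CPM of *Parp1*, and N215, with 1545, had 64.4. Grilka had 134.3 CPM at 1321, and the L limb tumor of N42 had 56.0 at 1375. As a share of the library total, however, *Parp1* in Grilka, Montana, Prince and Oregon was below that in the L limb tumor. In Ohio it stayed above N215. *Mutyh* was at 1.66 to 8.92 CPM in the low and 3.39 to 11.4 in the high KO tumors, and *Lig3* was highest in Prince, a low tumor. The part of proliferation and of osteoblast, macrophage and other tissue RNA in the differences between KO and WT was not tested. Only values without Montana and Oregon and without Massa and Grilka are given.

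**Figure D5:**
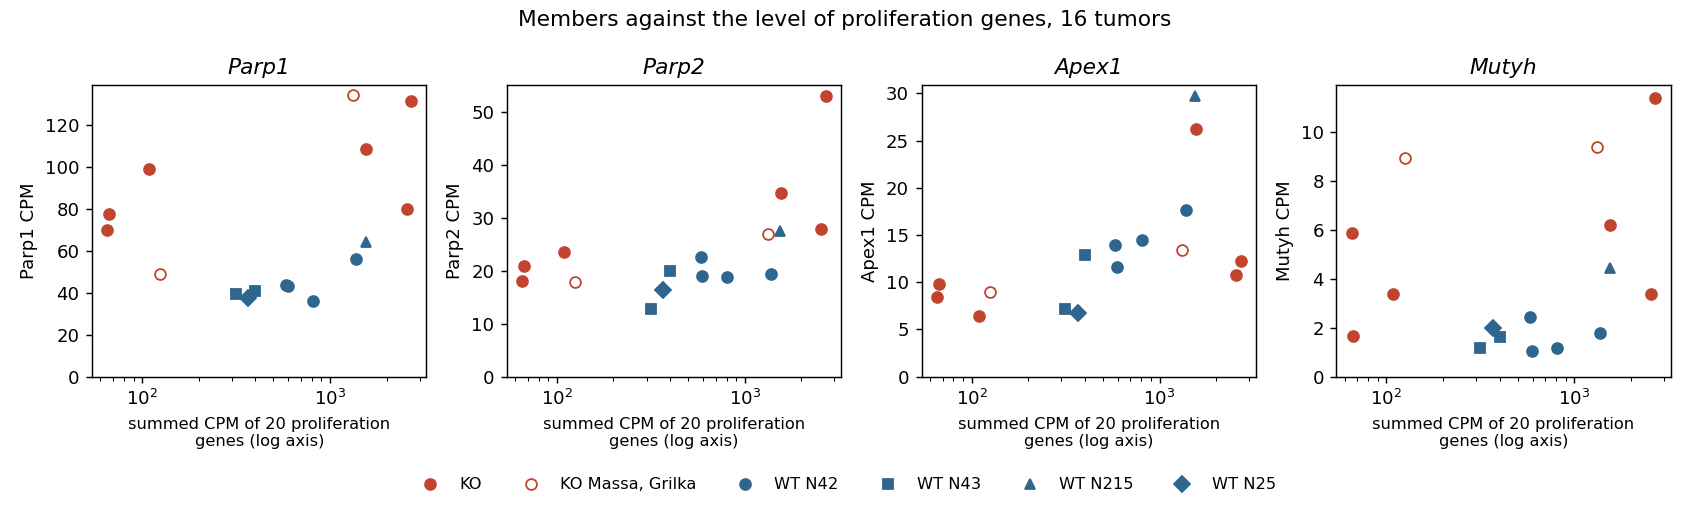
CPM of *Parp1*, *Parp2*, *Apex1* and *Mutyh* (vertical axes) against the summed CPM of 20 proliferation genes (horizontal log axis) in 8 KO tumors (red, Massa and Grilka open) and 8 WT tumors (blue, one shape per mouse). KO tumors lie at 65.3 to 124.9 or at 1321 to 2699 on the horizontal axis, WT tumors at 315 to 1545, and *Parp1* in Ohio (108.5) is above that in N215 (64.4) at nearly the same proliferation level.

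The genes whose log2 CPM followed the first members most closely over the 12 mice, among 16007 genes, were *Pa2g4* (Pearson r = 0.933), *Pnn* (0.929) and *Aatf* (0.929) for *Parp1*. For *Parp2* they were *Ankrd26* (0.936), *Baz1b* (0.932) and *Ddx55* (0.931), and for *Xrcc1* they were *Ubap2* (0.979), *Rbm19* (0.966) and *Eif3b* (0.961). These points share the library, its depth and the genotype groups, and the values are a description.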

How the data were processed

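Per the labels, RNA was depleted of ribosomal RNA and sequenced from one end for 50 cycles. The authors aligned reads with Novoalign 2.08.01 to mm10 with Ensembl build 74 transcripts, allowed up to 50 alignments per read and kept the best, and deposited raw counts per gene, the values used here. They ran DESeq2 1.26.0 on them. The smallest gene total is 6 counts.

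Groups came from the genotype labels, and an animal code shared by several tumors was taken as 1 mouse. No batch is labeled. The main test was edgeR 4.0.16 in R 4.3.3 (TMM, filterByExpr with minimum count 10 and total 15, glmQLFit and glmQLFTest, two-sided, Benjamini-Hochberg over 15413 genes, threshold 0.05), and 9641 genes were not tested. CPM use the TMM-scaled library size over tested genes, log2 CPM a prior count of 2 and ratios a pseudocount of 0.5. Alternatives were DESeq2 1.42.0, limma 3.58.1 (voom, mouse correlation 0.762 by statmod 1.5.0), other scalings, no filter, sums per mouse and left-out mice. The scripts were tested on simulated data. Intervals are exact 95% Poisson and floors are 3 counts, for counting error only. Positions are GENCODE vM21. Python 3.11.15 (scipy 1.17.1, numpy 2.4.6, matplotlib 3.10.9, pandas 2.3.3) drew the figures.

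The members and lists were chosen with earlier results of these data known. All members are named. Each pathway list adds the genes past the threshold and the 2 with the largest absolute change. Neighbors overlap a member or start within 1000 bases of it, and 3 similar genes are given for each of *Parp1*, *Parp2* and *Xrcc1*. *Parp12*, *Runx2* and *Sp7* are outside the rule and were picked with their values in view.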

Additional observations from a re-analysis of the deposited data

Results flagged for a closer look

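Gaps were measured on log2 CPM with a prior count of 2, which sets where a count of 0 lies. *Ogg1* in KO had a lowest tumor far from the others. Massa was at 0 CPM and the next tumor, Zelda, at 4.54, a gap of 0.85 of the range of the 8 KO tumors on the log2 scale and 0.547 in CPM. *Ung* in KO had the same tumor at its low end, with Massa at 0 CPM and Montana next at 2.04, a gap of 0.536 of the log2 range, just past the critical value of 0.526 for 8 samples, but 0.101 of the range in CPM. Massa is the shallowest library, where the 95% Poisson interval of 0 counts reaches 8.23 CPM, a level above the median KO tumor for both genes. The 9 genes in 2 groups gave 18 groups, and chance flags about 1 in 20. Without Massa the log2 fold change of *Ogg1* was 0.036.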

How the results depend on the processing

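With 21 alternatives per gene, *Parp1* kept its direction in all (log2 fold change 0.96 to 1.19) and passed in 16, with adjusted p from 2.33e-05 to 0.419. *Mutyh* kept its direction (1.29 to 1.95) and passed in 8, with adjusted p from 0.00493 to 0.604. *Parp2*, *Xrcc1*, *Lig3* and *Ung* kept theirs and passed in none. The sign turned for *Ogg1* without Massa, N215 (0.031) or N25 (0.0185), with a range of -0.24 to 0.036 over left-out mice, for *Apex1* without N215 (-0.52 to 0.054), and for *Polb* without Montana (-0.098 to 0.33) or without Montana and Oregon (-0.32). The causes were not tested.

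The 618 genes called became 2517 in DESeq2, 10 with counts summed per mouse, 17 in limma-voom taking the mouse as random, 372 without Montana and Oregon, 15 with 1 tumor per mouse (N42 R pelvis and N43 spine, chosen after seeing the data), and 8 (without N42) to 1348 (without Zelda) with 1 mouse left out. Without N43 they were 133. The 2 members called became 1 with no filter, without Massa and Grilka and without Montana and Oregon, and 0 with sums per mouse, in limma-voom and with 1 tumor per mouse; with 1 mouse left out they were 0 to 2. The 1 gene called of ADP-ribose removal and NAD+ supply became 3 in DESeq2 and 0 with no filter, sums per mouse, limma-voom, 1 tumor per mouse and without Montana and Oregon, and 0 to 3 with 1 mouse left out. The end processing list had 0 called, 1 in DESeq2 and 0 to 1 with 1 mouse left out, and the other PARP genes 0, 2 in DESeq2 and 0 to 1.

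Over all 16 tumors the *Parp1* to *Parp2* ratio differed by 0.55 and the *Ogg1* to *Mutyh* ratio by -1.86. The adjusted exact permutation p was 0.0109 for each, but this test treats tumors of the same mouse as independent, which they are not. With the mouse as the unit the adjusted exact p was 0.0707 and 0.136, and neither ratio passed. The planned correlation with proliferation genes, and its other prior count, was not run, because the KO tumors fall into separate clusters. Where 1 KO or WT mouse is left out, the spread is pooled over the rest. No paired analysis was possible because KO and WT tumors came from different mice. Depth limits *Mutyh*, *Ogg1*, *Ung*, *Apex1* and *Polb* in Massa and Grilka, and the 4 WT mice limit every comparison over mice.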
